A study of Mus musculus with 7 samples.

Results

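The genes described here encode the subunits, assembly chaperones and direct regulators of the mouse proteasome, 48 of the 18951 gene symbols in the table, measured in ovulated oocytes that lacked Nlrp2 and in wild-type (WT) oocytes. They were chosen by name alone, as every symbol made of Psma, Psmb, Psmc, Psmd, Psme, Psmf or Psmg and a whole number. Psmc3ip and Psme2b begin alike but go on after the number, and were not counted. RNA was sequenced from 4 pools of Nlrp2-null oocytes and 3 pools of WT oocytes, all of the C57BL/6 strain and from females 4 weeks old. Cumulus-oocyte complexes were flushed from the ampulla and stripped of their cumulus cells with hyaluronidase, and a pool held about 150 oocytes of 3 to 4 mice with the same genotype. The exons removed in the null allele and the way ovulation was brought about are not in the labels. A pool is a separate collection of animals, so the spread between pools holds differences between mice as well as technical ones, and in such bulk RNA fewer cells of a type and less RNA per cell cannot be told apart.

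The proteasome is the main machine that degrades ubiquitin-tagged proteins in the cytosol and nucleus. Its barrel-shaped core is built of outer rings of alpha subunits and inner rings of beta subunits that carry the cutting sites. A regulatory particle, with a base of ATPases and a lid, binds tagged proteins, removes the ubiquitin and threads them into the core, while other activators open the core without ubiquitin. In the oocyte it removes cyclin B and securin at the meiotic divisions, and after fertilization it helps to clear proteins stored by the mother.

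Sequences of a few kinds bear on how the values below can be read, and all are written 5′ to 3′ on the strand of the gene. The first are stretches of 120 bases upstream of the start of Psme3, the gene with the highest level here, and of the catalytic genes Psmb5 and Psmb6, taken from RefSeq promoters on GRCm38.p6 outside any exon of the GENCODE M21 annotation. Capitals mark a CCAAT box (CCAAT, here as ATTGG on the other strand) in Psme3 and the core of the antioxidant response element (TGACNNNGC), to which the transcription factors NRF1 and NRF2 bind, in Psmb5 and Psmb6. The Psme3 stretch is chr11:101316093-101316212 on the plus strand, that of Psmb5 chr14:54618023-54618142 on the minus strand, and that of Psmb6 chr11:70525237-70525356 on the plus strand.
Psme3: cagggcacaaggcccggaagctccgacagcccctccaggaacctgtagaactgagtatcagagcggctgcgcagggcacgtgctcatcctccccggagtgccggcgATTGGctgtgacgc
Psmb5: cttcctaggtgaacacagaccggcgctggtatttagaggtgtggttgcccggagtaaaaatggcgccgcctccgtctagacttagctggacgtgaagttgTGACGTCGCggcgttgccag
Psmb6: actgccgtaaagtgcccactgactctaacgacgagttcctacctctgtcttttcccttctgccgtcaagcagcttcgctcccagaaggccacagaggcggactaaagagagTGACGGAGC

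RefSeq gave a promoter for 40 of the 48 proteasome genes, and 250 bases before each start were searched on both strands. The antioxidant response element core was found in 5 of the 40 (12.5%), namely Psmb5, Psmb6, Psmc6, Psmd12 and Psmd9, and in 11.5% of all 27025 genes with such a stretch. The CCAAT box was found in 14 of the 40 (35%) and in 37.5% of all genes. Neither motif holds the other within its fixed letters. A match is a description of letters, not a binding site.

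The other sequences are stretches of 120 coding bases in which a proteasome gene and a processed pseudogene elsewhere in the genome are nearly the same, in GENCODE M21 transcripts on GRCm38. Reads from such stretches cannot be assigned to a gene with certainty. Psmb5 on chromosome 14 and Gm3375 on chromosome 7 differ at 0 of the 120 bases and are 98.9% identical over 796 aligned bases. The bases shown are 499 to 618 of the Psmb5 transcript.
Psmb5: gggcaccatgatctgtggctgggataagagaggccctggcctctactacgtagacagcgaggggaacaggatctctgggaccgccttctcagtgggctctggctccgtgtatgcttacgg
Gm3375: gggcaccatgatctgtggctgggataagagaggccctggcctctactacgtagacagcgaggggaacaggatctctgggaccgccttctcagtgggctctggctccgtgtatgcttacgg
Psmd2 on chromosome 16 and Gm5422 on chromosome 10 are 96.4% identical over 2726 bases, and the capital marks the 1 base of bases 1428 to 1547 of the Psmd2 transcript that differs.
Psmd2: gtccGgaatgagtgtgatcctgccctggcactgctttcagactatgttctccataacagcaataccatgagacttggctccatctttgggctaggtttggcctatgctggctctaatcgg
Gm5422: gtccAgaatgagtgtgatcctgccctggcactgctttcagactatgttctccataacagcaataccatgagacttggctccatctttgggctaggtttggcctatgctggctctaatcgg

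Stretches of at least 95% identity over at least 100 bases were found in another gene for 16 of the 48 proteasome genes, and for the other 32 none were found. They cover at least 50% of the transcript in 8 genes, Psma4, Psma5, Psmb3, Psmb5, Psmc1, Psmd11, Psmd2 and Psme2, and the values of these 8 are uncertain to that extent. Of the 16 copies of these 8 genes, 2 have a row of their own in the table. By position in the genome, 13 proteasome genes share exon bases with another annotated gene, among them Psmb9 with Tap1, Psmd13 with Sirt3 and Psmb7 with Nek6. These are not all further genes. Tap1, Sirt3 and Nek6, and also AY074887 for Psma4 and Mir686 for Psmb5, are already among the other genes with near-identical stretches. So are Gm20496 for Psmb8, Gm21972 for Psmd1 and Gm26938 for Psmg3. For Psmb7, Psmb8, Psmb9, Psmd1, Psmd13 and Psmg3 the only other gene with such a stretch is the overlapping one, not a copy elsewhere in the genome. The strand setting of the counting is unknown here.

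The table holds counts divided by a size factor for each pool, called normalized counts below. The recovered whole reads came to between 71795562 and 79476532 in Nlrp2-null pools and between 71073973 and 96330083 in WT pools. Nlrp2 itself had 107, 8.19, 1.96 and 63.8 normalized counts in Nlrp2-null pools 1 to 4, against 15527, 20130 and 16792 in WT pools 1 to 3 (log2 fold change -9.70, adjusted p = 6.98e-05 by limma). All 13 oocyte markers were present, and their sum was 933341 to 1044950 in Nlrp2-null pools against 877590 to 938778 in WT pools. Of 29 cumulus cell markers 26 were above the filter, Amh and Areg were at or near 0, and the sum was 131369 to 153947 in Nlrp2-null pools against 125377 to 149456 in WT pools. That list holds genes that oocytes also express, such as Rgs2. Its mean log2 level was 8.92, 9.10, 9.55 and 10.26 in Nlrp2-null pools 1 to 4 and 9.48, 8.39 and 8.74 in WT pools 1 to 3. Library numbers in the labels fall into a lower range (null 1, null 2, WT 1, WT 2) and a higher range (null 3, null 4, WT 3), which was treated as a possible batch.

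Proteasome messages summed to overlapping parts of the RNA with and without Nlrp2. They made up 0.260%, 0.257%, 0.245% and 0.265% of all normalized counts in Nlrp2-null pools 1 to 4, against 0.269%, 0.262% and 0.261% in WT pools 1 to 3. Null 3 was lowest, null 4 lay within the WT range, and the other Nlrp2-null pools lay just below it. No proteasome gene passed the test between Nlrp2-null and WT pools: 0 of 47 genes were called by limma at an adjusted p under 0.05, where 10 of all 15071 genes tested were called (0.0664%; 0.0531% higher and 0.0133% lower in Nlrp2-null pools). Psmb9 was the gene left out, because its mean was below 10 normalized counts. edgeR and DESeq2 on the recovered reads also called 0 proteasome genes, and called 0.0464% and 1.54% of all genes with an adjusted p.

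At an unadjusted p under 0.05 limma gave 5 of the 47, where 10.2% of all genes tested had such a p. These were Psmb10 and Psmg4 with higher values (5.28% of all genes) and Psmc4, Psmd2 and Psmg3 with lower values in Nlrp2-null pools (4.93% of all genes). The groups did not overlap in 3 of 47 genes, against 9.91% of all genes. Psmb8 lay higher in every Nlrp2-null pool than in any WT pool (4.74% of all genes did so), and Psmd3 and Psmg3 lay lower (5.16% of all genes). The WT mean was 4.37 for Psmb8 and 9.97 for Psmb10, below the filter of 10 normalized counts. Both genes passed the filter only through their Nlrp2-null pools, so their place among the higher genes cannot be read as support for a difference. The log2 fold change was above 0 in 17 genes and below 0 in 30, and over all genes it was above 0 in 50.7% and below 0 in 49.3%. Its median was -0.07 over the 47 proteasome genes and 0.01 over all genes. The median over the proteasome genes was -0.04 in the lower library range alone and -0.09 in the higher one, which has 1 WT pool. The count of all genes called ran from 2 without null 3 to 16 without null 1, while that of proteasome genes was 0 in each of these fits.

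**Figure D1:**
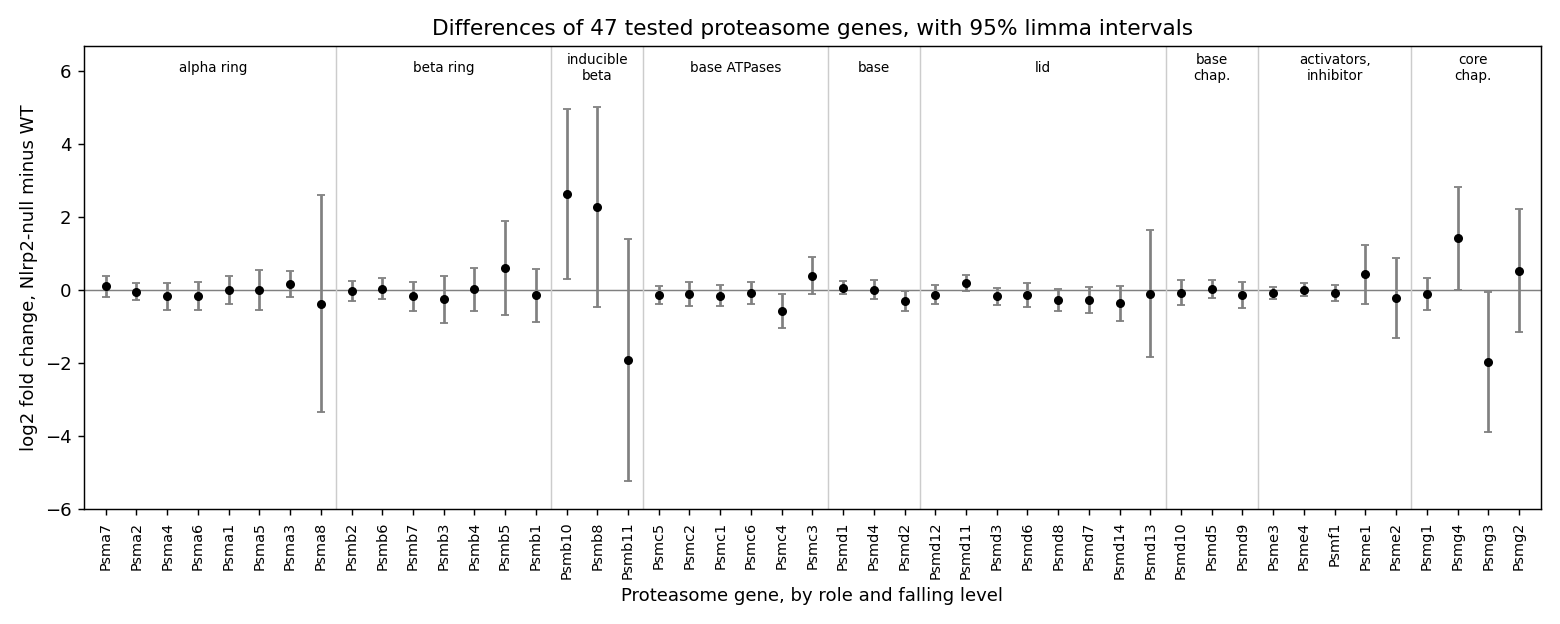
Log2 fold change (Nlrp2-null minus WT, of normalized counts + 1) of the 47 tested proteasome genes in order of role and level, with 95% limma intervals; the abbreviation chap. means chaperones. Intervals are narrow for most genes and wide for the low genes Psma8, Psmb8, Psmb10, Psmb11, Psmd13, Psmg2, Psmg3 and Psmg4.

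The precision of the comparison followed the level. For the 30 genes with a mean of 1000 or more normalized counts the median standard error (SE) of the log2 fold change was 0.137, and their log2 fold changes lay between -0.57 and 0.19. For the 9 genes from 100 up to 1000 the median SE was 0.300. For the 8 tested genes below 100 it was 1.00, and log2 fold changes ran from -1.98 to 2.63. The 95% interval lay within 1.5-fold in either direction for 29 of the 47 genes, 27 of them among the 30 with a mean of 1000 or more. For the other 18 genes the interval reached beyond 1.5-fold in at least 1 direction.

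**Figure D2:**
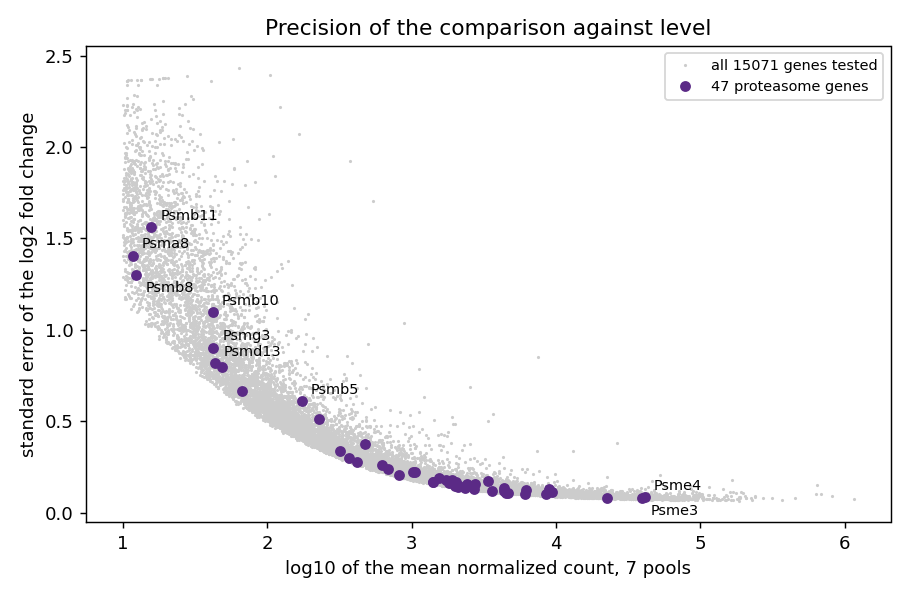
SE of the log2 fold change against the log10 mean normalized count of 7 pools, for all 15071 genes tested in grey and the 47 proteasome genes in purple. Psme3 and Psme4 sit at the low end of the SE and Psmb11 at 1.56.

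Levels differed far more between the proteasome genes than between the groups. To compare genes, normalized counts were divided by the length in kilobases of the principal transcript in GENCODE M21. On this scale the genes ran from 14770 for Psme3 to 3.70 for Psmb11, a span of 3996-fold. The order from the top was Psme3, Psmd1 (7312 per kilobase), Psme4 (6325), Psma7 (4741), Psmd12 (4736) and Psmc5 (3510). Of 47 pairs of neighbours in the order, 44 overlapped over the 7 pools. The 3 that did not were Psme3 and Psmd1, Psmd1 and Psme4, and Psmd10 and Psmd5. With the union of all annotated exons as the length Psme3 was again first and Psme4, Psmd12, Psmc5 and Psmd1 followed, while Psma7 was rank 11.

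**Figure D3:**
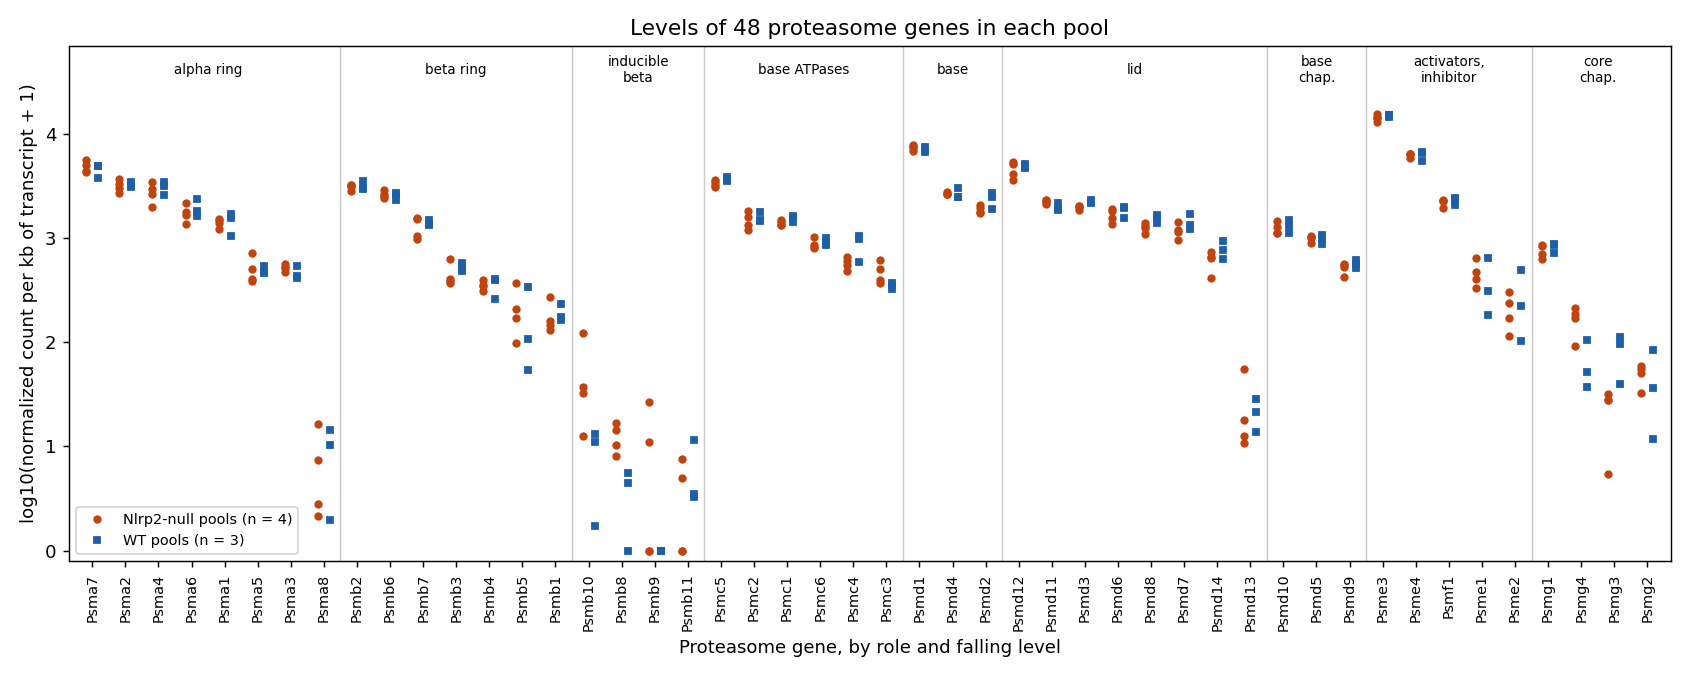
Log10 of normalized counts per kilobase of transcript + 1 for each of the 48 proteasome genes in each of 4 Nlrp2-null pools (circles) and 3 WT pools (squares), by role. Nlrp2-null and WT pools overlap for all genes except Psmb8, Psmd3 and Psmg3, and the lowest of all per kilobase are Psmb8, Psma8, Psmb9 and Psmb11.

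Psme3 had the highest level per kilobase of all proteasome genes and Psme4 the third. Psme3 encodes the nuclear activator that opens the core to proteins without ubiquitin. It had 41362, 38139, 35344 and 39462 normalized counts in Nlrp2-null pools 1 to 4, against 39450.5, 41121 and 40560.4 in WT pools 1 to 3. Null 1 was the highest pool and null 3 the lowest, so the groups overlapped, and the log2 fold change was -0.07 (SE 0.0784, adjusted p = 0.816 by limma). Psme4, a large activator best known for removing acetylated histones in mouse sperm cells, had 42450.5, 41701, 42271 and 38433 in Nlrp2-null pools against 35849, 42959 and 43740.1 in WT pools. WT pools were both lowest and highest there (log2 fold change 0.02, SE 0.0859, adjusted p = 0.965 by limma). Together Psme3 and Psme4 took 40.5%, 39.5%, 40.6% and 39.1% of the normalized counts of all 48 genes in Nlrp2-null pools 1 to 4, against 37.4%, 40.5% and 40.7% in WT pools 1 to 3.

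The other activators were far less abundant. Psme1 and Psme2 encode the 2 kinds of subunit of the interferon-induced activator that serves antigen processing. Psme1 had 371, 449, 523 and 716 normalized counts in Nlrp2-null pools and 724, 203 and 344 in WT pools, with WT 1 the highest and WT 2 the lowest of all 7. Psme2 had 111, 166, 291 and 228 in Nlrp2-null pools and 214, 98.8 and 480.0 in WT pools, and again WT pools were at both ends. Its transcript is covered to 82.5% by a copy, Psme2b, which had 0, 0, 6.87 and 0 in Nlrp2-null pools and 0, 0 and 1.65 in WT pools. Neither gene was called (limma adjusted p of 0.738 for Psme1 and 0.919 for Psme2). Psmf1, described as an inhibitor of the core and as an adaptor for its transport, had 8688, 8811, 7432 and 8629 normalized counts in Nlrp2-null pools and 9152, 9248 and 7911 in WT pools. The lowest pools of the groups, null 3 and WT 3, were of the higher range of library numbers (log2 fold change -0.06, SE 0.103, adjusted p = 0.871 by limma). Null 4 of that same range, at 8629, lay close to null 1 and null 2 of the lower range.

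In the alpha rings 0 of 8 genes were called, and Psma8 was the low one. Psma7 and Psma8 encode alternative forms of the same ring position, and Psma8 is the form of male germ cells in mice. Psma7 had 3973, 4682, 4037 and 5169 normalized counts in Nlrp2-null pools against 4502, 3469.9 and 4497 in WT pools, with null 4 the highest and WT 2 the lowest. Psma8 had 10.8, 3.07, 1.96 and 26.2 in Nlrp2-null pools and 15.8, 22.8 and 1.65 in WT pools, from between 2 and 25 reads a pool. It was low in both groups and ran over the same range. Per kilobase Psma7 averaged 4885 ± 622 in Nlrp2-null pools (SD, n = 4) and 4548 ± 650.5 in WT pools (SD, n = 3), while Psma8 averaged 6.21 ± 6.59 in Nlrp2-null pools and 7.93 ± 6.37 in WT pools. The limma adjusted p was 0.837 for Psma7 and 0.951 for Psma8. The other 6 alpha genes had log2 fold changes between -0.17 (Psma4) and 0.17 (Psma3).

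The constitutive beta genes spanned a 17.2-fold range of levels per kilobase, from 3157 for Psmb2 to 183 for Psmb1, although each core holds the products in equal numbers. Psmb2, a beta subunit without a cutting site, had 2816, 2655, 2458 and 2825 normalized counts in Nlrp2-null pools and 3082, 2606 and 2540.0 in WT pools. Psmb1, another one without a cutting site, had 482, 282, 257 and 229 in Nlrp2-null pools and 409, 289.9 and 304 in WT pools. The Nlrp2-null pools were at both ends for Psmb1, and for Psmb2 null 3 was lowest and WT 1 highest. Neither was called (limma adjusted p of 0.966 for Psmb2 and 0.919 for Psmb1).

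The core has 3 pairs of catalytic subunits, a constitutive form and an inducible form that interferon raises in immune and other cells. Psmb6, Psmb7 and Psmb5 carry the caspase-like, trypsin-like and chymotrypsin-like sites, and Psmb9, Psmb10 and Psmb8 are their inducible counterparts. Inducible messages were the minor part in all 7 pools. Per kilobase the 3 inducible genes made up 1.14%, 0.618%, 1.41% and 3.34% of all 6 in Nlrp2-null pools 1 to 4, against 0.286%, 0.104% and 0.347% in WT pools 1 to 3. Every Nlrp2-null pool lay above every WT pool, null 4 far above the rest, with means of 1.63% ± 1.19 (SD, n = 4) and 0.246% ± 0.126 (SD, n = 3). By pair the groups overlapped. Psmb8 made up 8.62%, 7.01%, 7.14% and 1.85% of Psmb8 and Psmb5 in Nlrp2-null pools and 0%, 6.21% and 4.07% in WT pools. Psmb10 made up 3.10%, 0.748%, 3.31% and 7.40% of Psmb10 and Psmb7 in Nlrp2-null pools and 0.794%, 0.0536% and 0.731% in WT pools. No test was made of the inducible share, since the genes were chosen with earlier results known, and neither Psmb8 nor Psmb10 passed the test across all genes.

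Psmb10 had 41.2, 15.4, 47.1 and 160.1 normalized counts in Nlrp2-null pools, against 15.8, 0.95 and 13.2 in WT pools. Null 4 stood highest and WT 2, with 1 read, lowest, and null 2 lay just below WT 1, so the groups overlapped. The log2 fold change was 2.63 (SE 1.10, adjusted p = 0.437 by limma). It was 2.20 within the lower range of library numbers and 2.63 within the higher range. Without WT 2 it was 1.64, and adjusted for the cumulus marker mean 1.39. Its constitutive counterpart Psmb7 had 1138, 1803, 1218 and 1774 in Nlrp2-null pools and 1748, 1567 and 1582 in WT pools, with Nlrp2-null pools at both ends (log2 fold change -0.17, SE 0.190, adjusted p = 0.812 by limma).

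Psmb8 had 15.2, 25.6, 21.6 and 11.5 normalized counts in Nlrp2-null pools, against 0, 5.70 and 7.41 in WT pools. These rest on 14, 25, 22 and 11 reads in Nlrp2-null pools and 0, 6 and 9 reads in WT pools. Psmb8 shares exon bases with Gm20496 on the opposite strand, so some of these reads may belong to Gm20496. The lowest Nlrp2-null pool, null 4, had an exact 95% Poisson interval of 5.49 to 19.7 reads, which overlaps that of WT 3 at 4.12 to 17.1 reads. Such intervals cover counting error only, since amplified reads are not independent molecules. The log2 fold change was 2.28 (SE 1.30, adjusted p = 0.583 by limma), and it was 3.00 within the lower and 1.00 within the higher range of library numbers, 1.31 without WT 1 and 3.06 when adjusted for the cumulus marker mean. Psmb5, its constitutive counterpart, had 88.9, 187, 155 and 337 normalized counts in Nlrp2-null pools and 305, 47.5 and 96.3 in WT pools. Null 4 and WT 1 were high and WT 2 low (log2 fold change 0.61, SE 0.610, adjusted p = 0.782 by limma), and the reads can include those of Gm3375, whose sequence is shown above.

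Psmb9 was listed at 0 in null 1, null 2 and all 3 WT pools, and had 13.7 and 34.5 normalized counts in null 3 and null 4, from 14 and 33 reads. A count of 0 allows up to 3 reads, which is 2.47 to 3.16 normalized counts in the WT pools. Psmb9 shares exon bases with Tap1, a peptide transporter gene of antigen processing on the opposite strand, which had 1.08, 5.12, 45.1 and 2.09 normalized counts in Nlrp2-null pools and 11.6, 0.95 and 14.8 in WT pools. Psmb6, its constitutive counterpart, had 1968, 2114, 2324 and 2051 in Nlrp2-null pools and 1876, 2107 and 2176 in WT pools, a narrow and shared range (log2 fold change 0.04, SE 0.140, adjusted p = 0.943 by limma). Psmb11, the catalytic subunit of the thymic cortex, had 0, 27.6, 0 and 16.7 in Nlrp2-null pools and 45.3, 9.50 and 10.7 in WT pools. Nlrp2-null pools 1 and 3 had no read of it, and WT 1 had the most (log2 fold change -1.91, SE 1.56, adjusted p = 0.715 by limma).

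**Figure D4:**
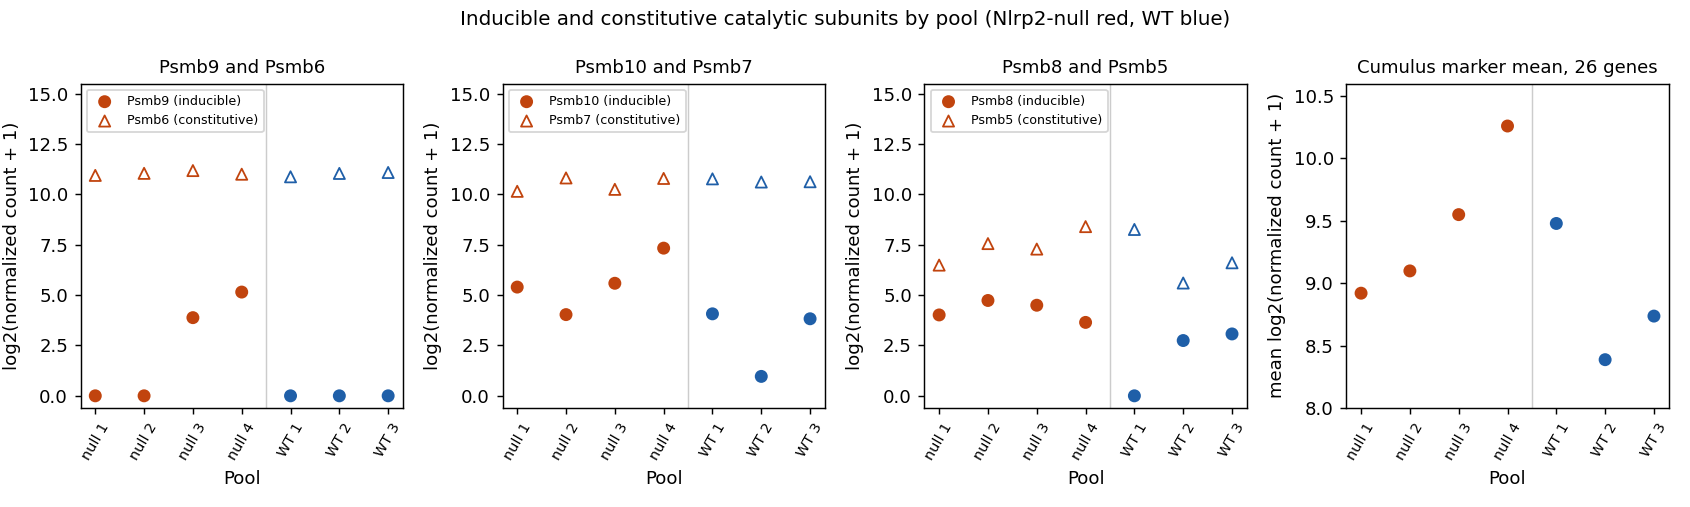
Log2(normalized count + 1) of the inducible (filled circles) and constitutive (open triangles) catalytic genes in each pool, Nlrp2-null red and WT blue, with the mean log2 level of 26 cumulus markers in the right panel. Null 4 has the highest Psmb10, Psmb9 and cumulus marker values, and Psmb8 is above the WT pools in all 4 Nlrp2-null pools.

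Markers of other cells moved with parts of this pattern. The cumulus marker mean was highest in null 4 (10.26), the pool with the most Psmb10 and Psmb9, and lowest in WT 2 (8.39), the pool with the least Psmb10. Between these ends the order differed. WT 1 (9.48) lay above null 1 (8.92), though Psmb10 was 15.8 in WT 1 and 41.2 in null 1. Psmb8 was at 0 in WT 1, and among the Nlrp2-null pools it was lowest in null 4 (11.5). Of the 26 cumulus markers tested, 21 had a log2 fold change above 0 with a median of 0.39, and at an unadjusted p under 0.05 4 were higher and 0 lower in Nlrp2-null pools, against 5.28% and 4.93% of all genes. The largest was that of Inhbb, a granulosa cell gene for an inhibin subunit, with 217, 63.5, 234 and 847 normalized counts in Nlrp2-null pools and 35.8, 14.3 and 8.23 in WT pools. Its log2 fold change of 3.73 was called by DESeq2 (adjusted p = 6.6e-06) and not by limma (0.101) or edgeR (0.133). Of 15 immune cell markers 8 were tested, 9 were at 0 in at least 1 pool, and the sum was 751 to 3666 in Nlrp2-null pools, highest in null 3, against 751 to 1356 in WT pools. The log2 fold change by limma was above 0 in 4 of the 8 and below 0 in the other 4. It depended on the test for Lyz2 (-0.51 by limma, 1.95 by edgeR) and Itgam (-0.38 by limma, 0.83 by edgeR), which were both at 0 in null 4. The other tested immune markers had the same sign by edgeR, with Cd68 and H2-Aa below 0. Lyz2 made up most of the sum in null 3 (2427 normalized counts), and Tyrobp had 0, 27.6, 2.94 and 0 in Nlrp2-null pools and 0 in all 3 WT pools. Coro1a was at 0 in every pool but WT 2, and Cd68 was lower in every Nlrp2-null pool than in any WT pool (log2 fold change -0.72). Of 8 oviduct and surface epithelium markers 7 were tested, and the sum was 580 to 2624 in Nlrp2-null pools, highest in null 4, against 554 to 721 in WT pools. The log2 fold change was above 0 in 5 of the 7 and below 0 in 2, Pax8 (-2.41) and Upk3b (-0.19). Pax8 had 0, 3.07, 0 and 0 normalized counts in Nlrp2-null pools and 73.7, 4.75 and 0 in WT pools. At an unadjusted p under 0.05, 2 of the 7 were higher and 0 lower in Nlrp2-null pools, against 5.28% and 4.93% of all genes. These were Ovgp1 (log2 fold change 2.09) and Krt8, which had 139, 228, 137 and 707 normalized counts in Nlrp2-null pools and 131, 88.4 and 44.5 in WT pools, while Foxj1 was at 0 in every pool but WT 2. The part of these cells in the inducible share was not tested. Without null 4 the mean inducible share was 1.06% in Nlrp2-null pools.

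The base ATPases unfold the substrate and drive it into the core. Of the 6 genes, 5 had a log2 fold change below 0, against 49.3% of all genes, with 0 called. Psmc4 had the smallest p of all proteasome genes. It had 875, 795, 961 and 697 normalized counts in Nlrp2-null pools, against 1414, 1530.2 and 858 in WT pools. WT 1 and WT 2 stood above all others, while WT 3 lay among the Nlrp2-null pools. The log2 fold change was -0.57 (SE 0.225), or 0.672-fold with a 95% interval of 0.483 to 0.936, and it did not pass the test (adjusted p = 0.404 by limma, edgeR 0.401, DESeq2 0.207). Within the lower range of library numbers it was -0.82 and within the higher range -0.07.

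Psmc3, another ATPase, had 605, 645, 829.9 and 1017 normalized counts in Nlrp2-null pools and 614, 533 and 576 in WT pools. Null 3 and null 4 were high, and null 1 lay below WT 1 (log2 fold change 0.40, SE 0.238, adjusted p = 0.606 by limma). Psmc5, the ATPase with the highest level per kilobase, had 4791, 4259, 4109 and 4595 normalized counts in Nlrp2-null pools and 4811, 5095 and 4672 in WT pools. The groups overlapped only through null 1 and WT 3 (log2 fold change -0.13, SE 0.111, adjusted p = 0.722 by limma). A second deposited table, of 18430 transcripts in 6 pools without null 1, holds a Psmc5 transcript as its only row that could be matched to a proteasome gene. It lists normalized counts of 9015, 9192 and 9618 in Nlrp2-null pools 2 to 4, against 10401, 11684 and 10280 in WT pools 1 to 3, all Nlrp2-null pools below all WT pools. These are the same pools, and without null 1 the gene values above did not overlap either, so this is not separate evidence. The share of all transcripts without overlap was not counted.

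Among the base subunits without ATPase activity, which hold docking sites for ubiquitin and shuttle proteins, Psmd1 was the second of all proteasome genes per kilobase. It had 23235, 23922, 24362 and 21383 normalized counts in Nlrp2-null pools and 23302, 21887 and 21184 in WT pools, within a narrow shared range (log2 fold change 0.07, SE 0.0830, adjusted p = 0.825 by limma). Psmd2, the scaffold on which shuttle proteins dock, had 5219, 5279, 5777 and 6236 in Nlrp2-null pools and 5657, 8019 and 7328 in WT pools. WT 2 and WT 3 were highest, and WT 1 lay among the Nlrp2-null pools. The log2 fold change was -0.30 (SE 0.126, adjusted p = 0.437 by limma), within the lower range -0.36 and within the higher range -0.29. Its transcript is covered to 98.2% by the Gm5422 copy shown above, so this value can hold reads of both. The ubiquitin receptor gene Psmd4 had a log2 fold change of 0.01.

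The lid removes the ubiquitin chain, and 7 of its 8 genes had a log2 fold change below 0, against 49.3% of all genes, with 0 called. The genes come from the same pools and are not independent, and null 3 had the lowest value of 14 proteasome genes. Psmd14, the deubiquitinase of the lid, had 1128, 1013, 645 and 996 normalized counts in Nlrp2-null pools and 1442, 976 and 1201 in WT pools, null 3 being lowest and WT 1 highest (log2 fold change -0.36, SE 0.223, adjusted p = 0.619 by limma). Psmd3, a scaffold subunit, had 4069.6, 4292, 4349.9 and 4411 in Nlrp2-null pools and 4665, 4782 and 4979 in WT pools. All Nlrp2-null pools lay below all WT pools by a small step, and the log2 fold change of -0.17 (SE 0.107) did not pass the test (adjusted p = 0.632 by limma).

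Psmd8, whose yeast counterpart joins the lid last in assembly, had 1958, 2152, 1714 and 2042 normalized counts in Nlrp2-null pools and 2405, 2146 and 2556 in WT pools. Null 2 lay just above WT 2, and otherwise the Nlrp2-null pools were lower (log2 fold change -0.27, SE 0.144, adjusted p = 0.557 by limma). Psmd11 was the lid gene with a log2 fold change above 0 (0.19, SE 0.105, adjusted p = 0.573 by limma). It had 6354, 6596, 6043 and 6730.4 in Nlrp2-null pools and 5297, 6219 and 5420.0 in WT pools, with null 3 below WT 2. Psmd12, the highest lid gene per kilobase, had 10231, 9905, 6926 and 7916 in Nlrp2-null pools and 9915, 9249 and 8979 in WT pools, where null 3 and null 4 were low and null 1 high (log2 fold change -0.12, adjusted p = 0.80 by limma).

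Psmd13 stood apart from the rest of the lid. It had 33.6, 108, 19.6 and 23.0 normalized counts in Nlrp2-null pools and 25.3, 40.9 and 54.3 in WT pools, with null 2 far above the other 6 pools (log2 fold change -0.09, SE 0.817, adjusted p = 0.979 by limma). Per kilobase it averaged 21.9 over the 7 pools, whereas the other 7 lid genes averaged between 686 (Psmd14) and 4736 (Psmd12). Sirt3, a sirtuin gene whose exons overlap it on the opposite strand, had 20.6, 51.2, 51.0 and 96.3 in Nlrp2-null pools and 107, 17.1 and 62.6 in WT pools.

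The base chaperones, which help the ATPases to assemble, had log2 fold changes of -0.07 (Psmd10), 0.03 (Psmd5) and -0.14 (Psmd9). Psmd10, also known as gankyrin, had 2087, 1595, 1836 and 1619 normalized counts in Nlrp2-null pools and 2164, 1865 and 1605 in WT pools, with WT 1 and null 1 high. Psmd9 had 1453, 1096, 1458 and 1368 in Nlrp2-null pools and 1463, 1353 and 1608 in WT pools, with null 2 the lowest and WT 3 the highest. The limma adjusted p was 0.913 for Psmd10 and 0.826 for Psmd9.

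The chaperones of the core act as 2 pairs, Psmg1 with Psmg2 and Psmg3 with Psmg4, and the products of the second pair assemble the alpha ring together. In these pools the Psmg3 and Psmg4 messages had log2 fold changes of opposite sign, neither past the test. Psmg3 had 23.8, 23.6, 3.92 and 27.2 normalized counts in Nlrp2-null pools and 99.0, 34.2 and 84.8 in WT pools, all Nlrp2-null pools below all WT pools (log2 fold change -1.98, SE 0.903, adjusted p = 0.478 by limma). For Psmg3 it was -1.26 in the lower library range alone and -2.86 in the higher one. Psmg3 shares exon bases with Gm26938 on the same strand, which covers 26.95% of its transcript, so its reads can include those of Gm26938. Psmg4 had 103, 50.2, 95.2 and 117 in Nlrp2-null pools and 57.9, 20.0 and 28 in WT pools. Null 2 lay below WT 1, and the other Nlrp2-null pools were higher than all WT pools (log2 fold change 1.42, SE 0.667, adjusted p = 0.489 by limma; 1.05 within the lower and 1.88 within the higher range).

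Psmg1 had 889, 664, 902 and 731 normalized counts in Nlrp2-null pools and 892, 761 and 914 in WT pools, an overlapping range (log2 fold change -0.11, SE 0.207, adjusted p = 0.890 by limma). Its partner Psmg2 had 33.6, 57.3, 61.8 and 52.3 in Nlrp2-null pools and 88.5, 11.4 and 37.9 in WT pools, where WT pools were at both ends (log2 fold change 0.54, SE 0.795, adjusted p = 0.858 by limma). Per kilobase Psmg1 averaged 787 over the 7 pools, Psmg4 121, Psmg3 48 and Psmg2 46.2.

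By pool, the highest value of a proteasome gene fell most often in null 4 and WT 1 (11 genes each) and WT 3 (10 genes), and the lowest most often in null 3 (14 genes) and WT 2 (11 genes). Summed by role, the lid had 27981, 28522, 23419 and 26588 normalized counts in Nlrp2-null pools against 28641, 28101 and 28099 in WT pools, with null 3 the low pool. The base ATPases had 13213, 12313, 12024 and 14117 in Nlrp2-null pools against 14563, 14038 and 13621 in WT pools, with null 4 within the WT range.

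Genes that work with the proteasome were counted in 6 lists, and limma and edgeR called 0 of their 65 tested genes. Among proteasome parts and partners without a Psm symbol, 0 of 9 tested genes had an unadjusted p under 0.05. Their smallest p belonged to Akirin2, an adaptor for import of proteasomes into the nucleus, with 19484, 19949, 17091 and 17685 normalized counts in Nlrp2-null pools and 19441, 20296 and 21589 in WT pools (log2 fold change -0.14, adjusted p = 0.623 by limma), and to Zfand2a, a stress-induced proteasome partner (0.12, adjusted p = 0.642 by limma). Among 6 deubiquitinases and ligases bound to the proteasome, the deubiquitinase gene Uchl5 had 1647, 1631, 1117 and 1562 in Nlrp2-null pools and 1833, 2109 and 2183 in WT pools, with no overlap (log2 fold change -0.47, adjusted p = 0.376 by limma; 1 of the 6 genes lay below WT in every Nlrp2-null pool, against 5.16% of all genes). The ligase gene Ube3a had a log2 fold change of 0.21 (adjusted p = 0.674 by limma).

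Among 12 tested genes of ubiquitin and its shuttles, both genes for the enzymes that activate ubiquitin had lower values in Nlrp2-null pools without overlap. They were the only 2 of the 12 below all WT pools and 0 lay above, against 5.16% and 4.74% of all genes. Uba1 had 31549.8, 32581, 35310.0 and 33192 normalized counts in Nlrp2-null pools and 36170.2, 39741 and 40158 in WT pools (log2 fold change -0.22, adjusted p = 0.362 by limma). Uba6 had 8044, 7948, 7748 and 8127 in Nlrp2-null pools and 9303, 9693 and 9490.5 in WT pools (-0.25, adjusted p = 0.364 by limma). Among 12 genes of the p97 unfoldase, which pulls tagged proteins out of complexes, Nploc4 had 6777, 7042, 7125 and 6986 in Nlrp2-null pools and 9205, 8868 and 9428 in WT pools. These groups stood well apart, with a log2 fold change of -0.39 that DESeq2 called (adjusted p = 0.00257) and limma (0.148) and edgeR (0.140) did not. Faf1, another p97 cofactor gene, was also lower in every Nlrp2-null pool than in any WT pool (-0.28, adjusted p = 0.466 by limma). Ubxn7, a further cofactor gene, had 4505, 4837, 5030 and 4519 in Nlrp2-null pools and 4136, 4130 and 3749 in WT pools, so that it was higher in every Nlrp2-null pool (0.24, adjusted p = 0.483 by limma). Of the 12 genes, 6 had a log2 fold change above 0 and 6 below. The Nlrp2-null pools lay above all WT pools in 1 of them and below in 2, as they did in 4.74% and 5.16% of all genes.

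Among 15 tested regulators of proteasome genes, Mafg, a partner of the NRF factors, had a log2 fold change of 0.55 (adjusted p = 0.430 by limma). Nfe2l1, which encodes NRF1, the factor that raises proteasome genes when proteasomes are blocked, had 27059, 26349.6, 29288 and 29306 in Nlrp2-null pools and 23771, 24209 and 25527 in WT pools. It was higher in every Nlrp2-null pool by a small step (log2 fold change 0.19, SE 0.0803) and did not pass the test (adjusted p = 0.437 by limma). The Nlrp2-null pools lay above all WT pools in 2 of the 15 regulators and below in 0, against 4.74% and 5.16% of all genes. Of 11 genes of antigen processing, 2 had a higher value at an unadjusted p under 0.05 and 0 a lower one, against 5.28% and 4.93% of all genes. H2-K1, a class I antigen-presenting gene, had 1002, 1178, 1536 and 1427 in Nlrp2-null pools and 724, 693 and 599 in WT pools. It was higher in every Nlrp2-null pool, as 1 gene of the 11, against 4.74% of all genes. Its log2 fold change of 0.92 was called by DESeq2 (adjusted p = 0.00297) and not by limma (0.117) or edgeR (0.152). H2-D1, a related gene, had 145, 169, 193 and 257 in Nlrp2-null pools and 151, 9.50 and 84.8 in WT pools, where null 1 lay below WT 1 (log2 fold change 1.87, adjusted p = 0.404 by limma). The cumulus marker mean stood above all WT values only in null 3 and null 4, and its part in the values of H2-K1 and H2-D1 was not tested.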

How the data were processed

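Total RNA of oocyte pools was amplified from about 20 ng with primers of both kinds, oligo d(T) and random, for sequencing on Illumina instruments, per the labels' protocols. The signal of the deposited gene table is the count of a gene in a pool over that pool's size factor, as in DESeq2, per the file headers. Within a tolerance of 0.01, 100% of its values were whole multiples of the value of 1 read, which gives back whole reads. Per the submitters' processing notes STAR 2.5.0a, TopHat2 2.0.9, featureCounts 1.5.0-p1, HTSeq, DESeq2 1.22.2, DESeq and HOMER are named as tools, and GRCm38 and mm10 as builds. Which of them made each table, the annotation and the strand setting are unknown here (not given in the sources used here). A second deposited table holds a like signal per transcript, and 1 of its rows was used.

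limma 3.58.1 (R 4.3.3) with a variance trend compared Nlrp2-null with WT pools on log2(normalized count + 1) over the 15071 genes with a mean of at least 10, with Benjamini-Hochberg adjustment over all of them. For low genes, fold changes on this scale can lie on either side of those of a count model. For Psmb11 the log2 fold change was -1.91 by limma and -0.97 by edgeR, for Psmg2 0.54 and 0.16, and for Psmb10 2.63 and 2.72. The residual degrees of freedom were 5 and those of the prior 10.9. edgeR 4.0.16 and DESeq2 1.42.0 were run on the recovered reads, and 2080 genes, Psma8, Psmb8 and Psmb11 among them, have no adjusted p-value from DESeq2 (NA). The count tests were alternatives. In simulated data for Nlrp2-null against WT, with 200 of 15071 genes changed, limma found 31.3%, 55.2% and 71.2% of those changed 1.5-, 2- and 4-fold, with 6 false calls among 111, while 30 of 156 DESeq2 calls were false. Counts of any pair of pools in a group differed beyond sampling noise (smallest chi-square 38.2 per degree of freedom), and pools were the replicates. Copies were sought with BLAST 2.17.0.

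The proteasome genes and all lists were chosen with earlier results of these data known. The rule for genes to name took the catalytic pairs, Psmb11, Psma7 and Psma8, the activators, the inhibitor, the core chaperones, the 10 with the smallest limma p and the highest and lowest per kilobase of each role, and 2 genes of each partner list with the smallest p. Of these genes 1, and of 4 promoter motifs searched 2, are not reported here. Psmd3, Nfe2l1, Ubxn7 and the marker genes given with values were named with their values already known. Settings varied were the pseudocount, filter, scaling, variance model, covariates, test and the pools included.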

Additional observations from a re-analysis of the deposited data

Results flagged for a closer look

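In 3 proteasome genes a single Nlrp2-null pool lay farther from the other Nlrp2-null pools than Dixon's 95% limit for a group of 4 allows. Chance does this in about 1 of 20 groups, and the groups of all 32 named proteasome genes were examined. The share of all genes beyond this limit was not counted. Psmd13, the low lid gene, had 107.5 normalized counts in null 2, against 19.6 to 33.6 in the other Nlrp2-null pools and 25.3 to 54.3 in WT pools. Psmf1, the inhibitor gene, had 7432 in null 3, against 8629 to 8811 in the other Nlrp2-null pools and 7911 to 9248 in WT pools. Psmg3, the core chaperone gene, had 3.92 in null 3, against 23.6 to 27.2 in the other Nlrp2-null pools and 34.2 to 99.0 in WT pools. The WT group of 3 pools is too small for this limit.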

How the results depend on the processing

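Under all 20 alternatives 0 proteasome genes were called, and the median log2 fold change of those tested stayed below 0, between -0.13 (equal medians) and -0.01 (without null 3 and null 4). The count of all genes called, 10 in the main setting, was 6 with equal medians, 0 without the variance trend, 1 with the replicate block, 200 with DESeq2, 0 without null 3 and null 4, 0 in the lower library-number range alone, and 2 to 16 with 1 pool left out (2 without null 3, 16 without null 1). Replicate numbers did not pair the pools (correlations of -0.16, 0.02 and -0.01). The mean inducible share ran from 1.06% to 1.96% in Nlrp2-null pools and from 0.195% to 0.316% in WT pools with 1 pool left out, and without division by length it was 2.41% in Nlrp2-null pools and 0.370% in WT pools.

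Of 31 named genes with a fold change 14 took the other sign under some setting, none of them called in any, and the cause was not tested. Log2 fold changes with 1 pool left out ran from -0.020 to 0.17 for Psma7, -1.34 to 0.24 for Psma8, -0.37 to 0.011 for Psmb1, -0.078 to 0.061 for Psmb2, -0.021 to 0.086 for Psmb6, -0.18 to 0.036 for Psmd10, -0.61 to 0.19 for Psmd13, -0.77 to 0.36 for Psme2, -0.074 to 0.070 for Psme4 and -0.21 to 1.215 for Psmg2. Adjusted for the cumulus marker mean they were -0.035 for Psma7, -0.34 for Psmb5, 0.45 for Psmd13, -0.17 for Psme1 and -0.10 for Psmg2. Without null 3 and null 4 they were 0.16 for Psmb1, 0.000957 for Psmb2, -0.0066 for Psmb6, 0.10 for Psmd12, 0.64 for Psmd13 and 0.000135 for Psmf1. In the lower range alone they were 0.10 for Psmb1, 0.072 for Psmd12 and 0.89 for Psmd13, and with equal medians -0.017 for Psmb6 and -0.042 for Psme4. Psmd13 had 0.0055 with the library-number range as a covariate, 0.12 with the replicate block and 0.19 with edgeR and with DESeq2. The other 576 of 612 values kept their sign. Depth and the spread between pools limit the genes below 100 normalized counts most.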
